A study of Mus musculus with 9 samples.

Results

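Dendritic cells were picked out of the complete suspensions of 9 primary mammary tumours in mice by their transcripts, and 250 of the 58645 cells that passed the quality limits were taken as dendritic. The limits kept a cell with over 500 but under 7500 detected genes, of whose counts less than 15% came from mitochondrial genes. A kept cell was called dendritic when at least 2 of 8 marker genes (Flt3, Xcr1, Clec9a, Ccr7, Ccl22, Cd209a, Zbtb46 and Siglech) had a count and when 6 genes of other cells had none. Those 6 genes were H2BMc (the reporter carried by the injected tumour cells), Krt8 (epithelial cells), Cd3e (T cells), Pecam1 (endothelium), and C1qa and C1qb (macrophages). Counts are unique molecular identifiers (UMIs), each of which marks a captured RNA molecule, and levels are given as CPM, the UMIs of a gene per 1000000 UMIs of the cells in question.

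Dendritic cells take up antigen, carry it to lymph nodes and present it to T cells, and are found in small numbers in most tumours. Conventional type 1 cells (cDC1) depend on Irf8 and Batf3, cross-present antigen of dead cells on MHC class I and drive CD8 T cell responses. Conventional type 2 cells (cDC2) depend in part on Irf4 and present on MHC class II to CD4 T cells. Both kinds can mature into a migratory state marked by Ccr7, the receptor that guides them along lymph vessels, and plasmacytoid cells are specialised makers of type I interferon.

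The tumours grew from the 168FARN mouse mammary carcinoma line, injected into the mammary fat pads of immunocompetent, syngeneic female BALB/c mice. There were 3 tumours each of the line without a knockout (WT), of cells without Kmt2c, which encodes an enzyme that methylates histone H3 (Kmt2c KO), and of cells without its relative Kmt2d (Kmt2d KO), and the cells of all groups carried a histone H2B–mCherry fusion. The knockouts were made by transient transfection of guide RNA and Cas9 plasmids and sorting, so that each was a pool of edited cells rather than a clone, and the tumours of a group replicate the mouse and not the editing. Only the injected cells were edited, so that every dendritic cell here belonged to an unedited host. Tumours were digested, frozen, cleared of debris on Percoll and sequenced as single-cell libraries that read the 5′ end of each transcript. The libraries carry no replicate number of the labels, so that the numbers 1 to 3 below only name tumours, and p-values measure the spread between these tumours.

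The 9 libraries held 939 to 14525 kept cells, and the 3 WT libraries were the smallest (939 to 2380 cells). The limit on mitochondrial counts removed 7.78% to 33.8% of the barcodes of a library, the most in a WT library. Transcript counts did not serve as a check of the labels. In tumour cells (H2BMc and Krt8 both detected), Kmt2c was at 39.6 to 51.4 CPM in the Kmt2c KO tumours against 45.0 to 46.7 in WT, and Kmt2d was at 23.3 to 30.8 CPM in the Kmt2d KO tumours against 13.8 to 20.4. Of the 250 dendritic cells, 2 shared their barcode sequence with another dendritic cell of a different library and 18 with any kept cell of another library. No doublet caller was used.

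Before the 6 exclusion genes were applied, 305 cells held at least 2 markers, and 55 of these were removed, 21 for Krt8, 17 for Pecam1, 15 for C1qb, 9 for C1qa and 5 for H2BMc, with overlaps. Of the 250 cells left, 140 held exactly 2 markers, 81 held 3, 27 held 4 and 2 held 5. Flt3, the receptor for the growth factor of the lineage, was detected in 142 cells and Zbtb46, a transcription factor of conventional dendritic cells, in 149. The 140 cells just inside the threshold and the 306 cells just outside it, with exactly 1 marker, had similar depths (medians of 1809 and 1799.5 UMIs). Cd74, the chaperone of MHC class II, was detected in 87.9% of the cells just inside and in 61.4% of those just outside. The cells just outside also held the collagen gene Col1a1 at 1897 CPM, from 21 of the 306 cells, against 0 in the cells just inside. Cd209a was the only marker in 81 of the cells just outside, while 64 of the 250 dendritic cells held it. The rule thus left out more cells with Cd209a than it took, and the part of those cells in the results below was not tested.

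The label was checked against other genes, which only describes cells that were picked by related genes. A list of 12 general dendritic genes outside the rule summed to 64082 CPM, against 30288 in 484 macrophages (C1qa and C1qb both detected), 2130 in T cells and 1349 in tumour cells. Lists for other cell types were detected in part, over the 785669 UMIs of the 250 cells. Of 8 B cell genes 4 had a UMI, and the list summed to 115 CPM (75.1 to 238 over tumours), most of it from Ighm (89.1 CPM), with Cd79a, Ms4a1 and Pax5 at 0. Of 9 NK and innate lymphoid genes 7 had a UMI, at 235 CPM in all (105 to 517 over tumours), mainly from Il7r (112 CPM) and Klrk1 (96.7 CPM), with Ncr1 at 0. Of 6 neutrophil genes only Csf3r had a UMI, and S100a8 and S100a9 were at 0. Of 5 epithelial genes Cdh1 (35.6 CPM) and Epcam (17.8 CPM) were detected, and the list reached 142 CPM in a tumour, while it was at 0.292 CPM in the tumour cells. Of 12 macrophage genes 10 had a UMI, with Mertk and Ms4a7 at 0, and the list summed to 626 CPM in dendritic cells and to 17699.6 in macrophages. The 8 T cell genes summed to 29.3 CPM, against 3138 in T cells.

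Each cell was put in a part by the markers that separate the kinds of dendritic cell, pooled over libraries. Cells with Xcr1 or Clec9a alone were called cDC1, those with Cd209a alone cDC2, those with Ccr7 or Ccl22 alone migratory, and those with Siglech alone plasmacytoid. The migratory part was the largest, with 88 cells (35.2%, exact binomial 95% interval 29.3 to 41.5), followed by cDC1 with 56 (22.4%, 17.4 to 28.1) and cDC2 with 49 (19.6%, 14.9 to 25.1). The plasmacytoid part had 10 cells (4.0%, 1.93 to 7.23), all from 3 libraries. A further 30 cells held markers of 2 parts, most often of cDC1 and the migratory part (11 cells), and 17 held only Flt3 and Zbtb46. These intervals, and all those below, cover counting error alone, and depth differed between the parts, with medians of 3165.5 UMIs in cDC1, 2756 in cDC2, 1923 in migratory and 1468.5 in plasmacytoid cells. Levels below are compared between populations for the same gene, as descriptions without a test, because the markers that set the parts were measured in the same cells.

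**Figure D1:**
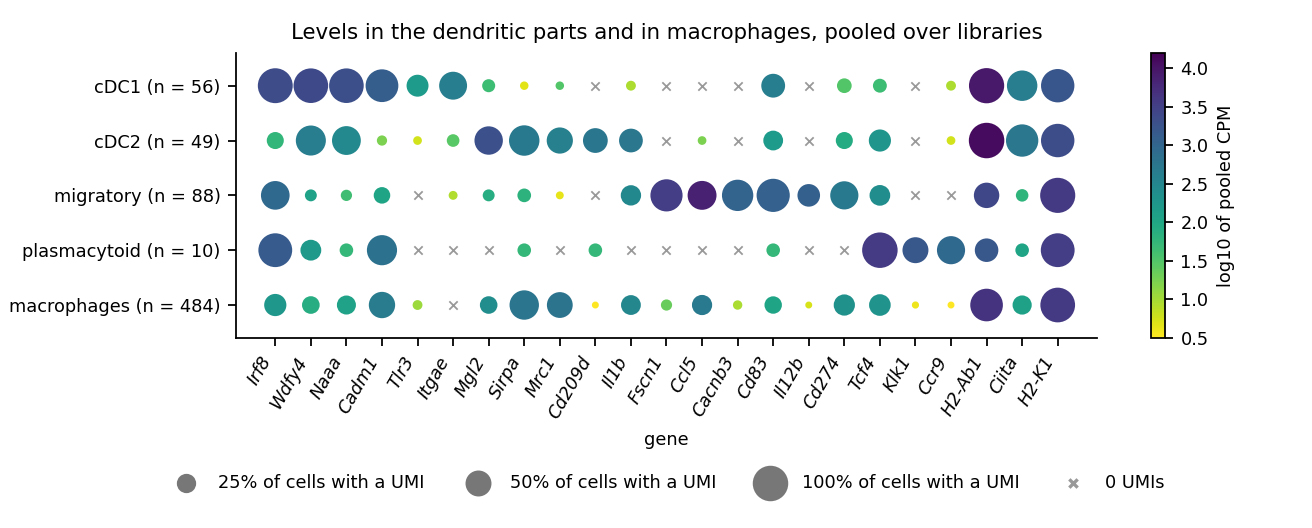
Pooled levels of genes outside the rule in the 4 dendritic parts and in macrophages. Colour gives the log10 of CPM, dot size the percentage of cells with a UMI, and a cross marks 0 UMIs. Wdfy4 and Naaa are highest in cDC1, Mgl2 in cDC2, Fscn1, Ccl5 and Il12b in migratory cells and Tcf4 in plasmacytoid cells.

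The parts separated on genes that had not been used to define them, although the lists were chosen with earlier results of these data known. Of 54 genes on lists for the 4 parts, 53 were detected in dendritic cells and 51 had their highest pooled CPM in the part they were listed for. That number was 50 when each tumour was given equal weight, and 44 of 52 when each cell was thinned to 1000 UMIs and genes were ranked by the share of cells with a UMI. The exceptions on pooled levels were Batf3, with 142 CPM in cDC1, 97.4 in cDC2 and 149 in migratory cells, and the lectin gene Clec10a, with 258 CPM in cDC2 and 330 in the 10 plasmacytoid cells.

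The cDC1 cells carried the transcription factor and the cross-presentation genes of that lineage. Irf8 was at 2254 CPM in cDC1 (Poisson 95% interval 2059 to 2462), 57.3 in cDC2, 883 in migratory and 1428 in plasmacytoid cells. Over the 5 tumours with at least 5 cDC1 cells, Irf8 was at 2243 ± 341 CPM (SD). Wdfy4, needed for cross-presentation of cell-associated antigen, was at 2414 CPM in cDC1, 436 in cDC2 and 118 in migratory cells. The level of Wdfy4 in cDC1 varied between 1619 and 3318 CPM over those 5 tumours, which stayed above the highest value of a tumour in cDC2, 650.

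Surface and sensing genes of cDC1 followed the same pattern. The adhesion gene Cadm1 was at 1266 CPM in cDC1, 17.2 in cDC2 and 109 in migratory cells, and Itgae, the integrin known as CD103, at 430, 28.7 and 8.74. The lysosomal hydrolases Naaa and Ppt1 were at 2039 and 933 CPM in cDC1, against 43.7 and 21.9 in migratory cells. Tlr3, the receptor for double-stranded RNA, was detected in 19 of 56 cDC1 cells (151 CPM) and in 1 of 49 cDC2 cells, and Tlr11, a receptor for the protein profilin, in 17 (128 CPM) and 1. In macrophages, with a median of 2256 UMIs, Tlr3 was detected in 3.51% of cells and Tlr11 in 0.413%. Among the 10 genes with the largest ratio over the other dendritic cells were Notch4, Asb2, Rab7b, Mycl and Gfod1, which were on no list. Rab7b, a small GTPase of endosomal transport, was at 370 CPM in 75.0% of cDC1 cells and at 15.9 CPM in the other dendritic cells.

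The cDC2 cells were marked by C-type lectins and by genes they shared with macrophages. Mgl2, the lectin CD301b, was at 1949 CPM in cDC2 (1747 to 2167), 45.7 in cDC1, 78.7 in migratory cells and 245 in macrophages. It was detected in 30 of 49 cDC2 cells. Cd209d, a lectin of the same gene cluster as the marker Cd209a, was at 550 CPM in cDC2 and at 0 in cDC1 and migratory cells, and similar sequences in that cluster may share reads. Sirpa, the inhibitory receptor for CD47, was at 499 CPM in cDC2, 4.57 in cDC1 and 569 in macrophages. Irf4, the transcription factor linked with cDC2, was low, at 45.9 CPM in 7 of 49 cells, and at 0 in cDC1.

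Macrophage genes within the dendritic cells were concentrated in cDC2. The 12 macrophage genes summed to 1536 CPM in cDC2, 352 in cDC1 and 109 in migratory cells. Mrc1, the mannose receptor, was at 401 CPM in cDC2, Csf1r, the receptor for the macrophage growth factor, at 178, and the lysozyme gene Lyz2 at 413. The part of macrophages in these values was not tested. C1qa and C1qb are 0 in every cell by the rule, so that their absence tells nothing about it. Clec4a3, Tent5a, Cd209e and Pi16 were further genes with a high ratio over the other dendritic cells. Il1b, a cytokine that activates inflammation, was at 539 CPM in cDC2, 9.14 in cDC1 and 297 in migratory cells.

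The migratory cells held genes without a single UMI in the other parts. Fscn1, the actin bundling protein of mature dendritic cells, was at 3348 CPM (3115 to 3594) in 71 of 88 migratory cells and at 0 in cDC1, cDC2 and plasmacytoid cells. The Poisson 95% interval of that 0 reaches 16.9 CPM in cDC1 and 21.1 in cDC2. The calcium channel subunit gene Cacnb3 was at 1058 CPM in migratory cells and also at 0 in the other parts, and Relb, a subunit of NF-κB, at 699 CPM against 54.9 in cDC1 and 86.0 in cDC2. Over the 7 tumours with at least 5 migratory cells, Fscn1 was at 3171 ± 691 CPM (SD) and Cacnb3 at 995 ± 207. Fscn1 was detected in 5.58% of macrophages.

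Summed over 16 listed cytokine and chemokine genes, migratory cells held 10835 CPM, against 963 in cDC2, 617 in cDC1 and 2602 in macrophages. The sum in migratory cells includes 656 CPM of Ccl22, which helped to define that part. Ccl5, which draws T cells and NK cells, was at 7369 CPM in migratory cells, 17.2 in cDC2, 0 in cDC1 and 485 in macrophages, and it was detected in 63.6% of migratory cells and 27.9% of macrophages. Il12b, the shared subunit of interleukins 12 and 23, was at 1189 CPM in 32 of 88 migratory cells and at 0 in the other parts, with Il12a at 0 in each of the 4 parts. Between tumours it ranged from 0 to 2590 CPM, with a mean of 1224 ± 917 (SD, n = 7), so that its level was less even than that of Fscn1. Of the 88 migratory cells, 21 held both Ccl5 and Il12b, 35 only Ccl5, 11 only Il12b and 21 neither. Ccl17, a ligand of Ccr4, was at 136 CPM and Cxcl16 at 835 CPM, against 120 to 187 for Cxcl16 in cDC1 and cDC2. Cxcl9, which draws T cells through Cxcr3, was instead highest in macrophages (727 CPM), and among the parts in cDC1 (256 CPM).

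Both activating and restraining ligands were high in migratory cells. Cd80, a ligand of CD28, was at 315 CPM in migratory cells, 64.0 in cDC1 and 17.2 in cDC2, and the maturation gene Cd83 at 1167, 434 and 155. Cd274, which encodes PD-L1, was at 507 CPM in migratory cells, 32.0 in cDC1, 86.0 in cDC2 and 218 in macrophages. Pdcd1lg2, which encodes PD-L2, was at 328 CPM in migratory cells and at 22.9 and 45.9 in cDC1 and cDC2, and 28 of 88 migratory cells held both ligands. Cd86, another ligand of CD28, did not follow that order, with 306 CPM in cDC1 and 258 in migratory cells. Havcr2, which encodes TIM-3, was highest in cDC1, at 197 CPM against 8.74 in migratory cells. The tolerance genes Ido1, Ido2 and Il10 had 1 or no detected cell in each part.

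In migratory cells, the antigen presentation genes of class II summed to less, and those of class I to more, than in cDC1 and cDC2. H2-Ab1, a chain of MHC class II, was at 9235 CPM in cDC1, 12529 in cDC2 and 2583 in migratory cells, and Ciita, the activator of class II transcription, at 439, 539 and 61.2. H2-K1, a heavy chain of MHC class I, was at 1637, 2184 and 3785 CPM in the same order. The 11 class II genes on the list summed to 70665 CPM in cDC2, 44963 in cDC1 and 20866 in migratory cells. The 11 class I genes summed to 14734 CPM in migratory cells, 8536 in cDC1 and 8122 in cDC2. Cst3, the protease inhibitor cystatin C, was at 27262 CPM in cDC1, 6872 in cDC2, 22920.1 in migratory cells and 2477 in macrophages. Ptprc, the pan-leukocyte gene CD45, was detected in 44 of 56 cDC1 and 39 of 49 cDC2 cells but in 20 of 88 migratory cells.

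The 10 plasmacytoid cells came from Kmt2c KO tumours 2 and 3 and Kmt2d KO tumour 1. Tcf4, the transcription factor that directs this lineage, was detected in 10 of 10 cells at 3570 CPM, against 45.7 in cDC1, 189 in cDC2 and 249 in migratory cells. Ccr9, a chemokine receptor of these cells, was at 879 CPM, Klk1 at 1593 and Runx2 at 1538. Bst2, a surface antigen of plasmacytoid cells that interferon also induces, was at 2636 CPM. Class II genes were low, with H2-Ab1 at 1593 CPM, Id2 was at 0, and Unc93b1, the escort of nucleic acid receptors, was at 824 CPM. With a total of 18208 UMIs, these levels rest on few counts.

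Cells with at least 2 of 12 proliferation genes were most common in cDC1, at 18 of 56 cells (32.1%, 20.3 to 46.0). The share was 5 of 49 cells in cDC2 (10.2%, 3.40 to 22.2), 4 of 88 in migratory cells (4.55%, 1.25 to 11.2) and 0 of 10 in plasmacytoid cells (interval up to 30.8%). Deeper cells show more genes, and after every cell was thinned to 1000 UMIs the shares were 16.4%, 8.70%, 2.56% and 0%, over 55, 46, 78 and 8 cells, so that the order of the first 3 was kept. Macrophages had 21.1% before and 11.4% after thinning.

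The first genotype comparison asked whether dendritic cells were as frequent in the knockout tumours as in WT. Dendritic cells made up 2.11%, 1.18% and 1.17% of the kept cells of the 3 WT tumours, from 25, 28 and 11 cells. They made up 0.169%, 0.675% and 0.398% in Kmt2c KO (20, 59 and 24 cells) and 0.684%, 0.199% and 0.193% in Kmt2d KO (41, 14 and 28 cells). Each WT tumour lay above each knockout tumour. The mean shares were 1.49 ± 0.54%, 0.414 ± 0.253% and 0.358 ± 0.282% (SD, n = 3). Over the 3 groups, the Kruskal-Wallis statistic had an exact permutation p = 0.0714 (0.119 adjusted over the 5 such tests), and the exact two-sided permutation test of each knockout against WT gave p = 0.10, the smallest that 3 against 3 tumours allow (0.15 adjusted over the 3 pairs).

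Whether the groups overlapped differed between the ways of counting, as the plot of the 3 denominators shows. Among cells with Ptprc and without H2BMc and Krt8, dendritic cells made up 20.8%, 21.3% and 7.53% in WT. They made up 11.7%, 6.85% and 6.46% of those cells in Kmt2c KO, and 15.9%, 9.68% and 16.8% in Kmt2d KO, and the groups overlapped (exact permutation p = 0.196). This share leaves out dendritic cells without a Ptprc count. It rests on 15, 16 and 7 dendritic cells in WT, 9, 27 and 19 in Kmt2c KO and 24, 9 and 20 in Kmt2d KO. Among all cells without H2BMc and Krt8, the WT tumours (3.68% to 8.45%) still lay above the knockout tumours (0.470% to 3.15%), with an exact permutation p = 0.05. These cells numbered 296, 477 and 299 in WT, and 72, 75 and 93 of them held Ptprc. In Kmt2c KO they numbered 3358, 2796 and 1948, with Ptprc in 77, 394 and 294. In Kmt2d KO they numbered 1300, 2409 and 5960, with Ptprc in 151, 93 and 119. This denominator can hold tumour cells without a count of either gene, and their part was not tested. Per 100 macrophages, a ratio added after the data had been seen, there were 208, 87.5 and 24.4 dendritic cells in WT, 35.7, 48.4 and 23.5 in Kmt2c KO and 74.5, 35.0 and 140 in Kmt2d KO (exact permutation p = 0.511). The WT libraries were also the smallest and the deepest per cell, with medians of 10472 to 13754 UMIs per kept cell against 2110 to 9197, and the part of that difference in the shares was not tested. Thinned to 1000 UMIs a cell, the shares gave an exact permutation p = 0.132.

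**Figure D2:**
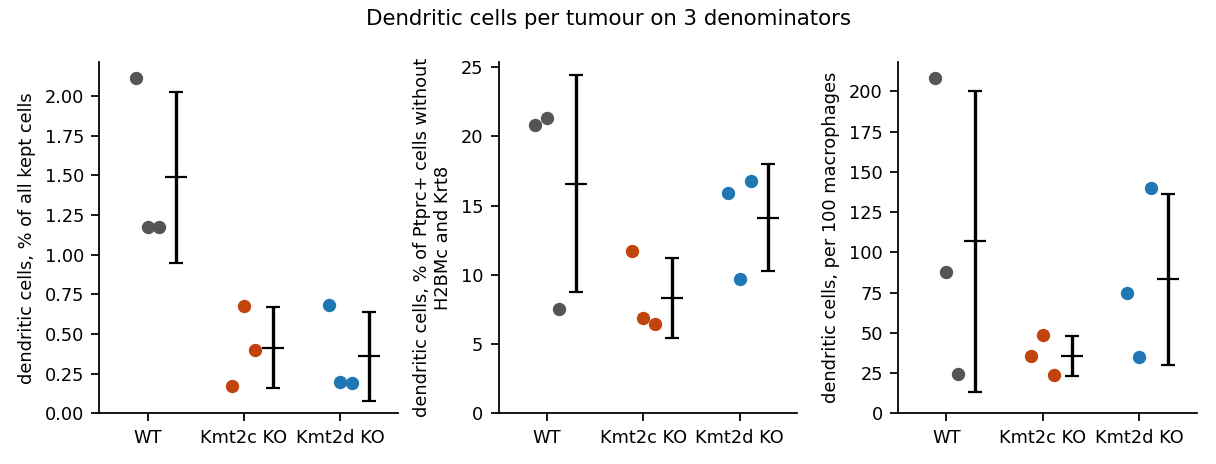
Dendritic cells of each tumour as a percentage of all kept cells, as a percentage of Ptprc-positive cells without tumour cell genes, and per 100 macrophages. The second counts only dendritic cells that held Ptprc. Points are tumours and bars the mean and SD of 3. Of these 3 denominators, the WT tumours lie above all knockout tumours only on the first.

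The make-up of the dendritic compartment was compared next. The cDC2 cells made up 36%, 32.1% and 36.4% of the dendritic cells of the WT tumours, 15%, 5.08% and 12.5% in Kmt2c KO and 24.4%, 14.3% and 21.4% in Kmt2d KO. All WT values lay above all knockout values, and the lowest 2 were Kmt2c KO tumours. The mean differed from WT by -24.0 percentage points in Kmt2c KO and by -14.8 in Kmt2d KO (each exact permutation p = 0.10, the smallest possible). The Kruskal-Wallis statistic gave an exact permutation p = 0.0107, or 0.0536 over the 5 tests, and 0.0071 after thinning to 1000 UMIs. The part rests on a single gene, Cd209a, which also helped to pick the dendritic cells, and a cell of cDC2 without a Cd209a count is missed. The share and its p-values therefore cannot tell fewer cDC2 cells from less Cd209a RNA in each.

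Migratory cells made up 28.0%, 25% and 27.3% of the dendritic cells in WT, 45.0%, 40.7% and 33.3% in Kmt2c KO, and 41.5%, 28.6% and 32.1% in Kmt2d KO. Every knockout tumour lay above every WT tumour, with an exact permutation p = 0.025 (0.0625 over the 5 tests). The order was lost after thinning to 1000 UMIs (exact permutation p = 0.957). Ccr7 and Ccl22, which set this part, also helped to pick the dendritic cells. The share and its p-values therefore cannot tell more migratory cells from more RNA of these genes in each. Shares sum to 100%, so that the cDC2 and migratory shares are not independent. The cDC1 share was at 24.7 ± 10.1%, 23.5 ± 3.02% and 23.9 ± 14.8% (SD, n = 3, exact permutation p = 0.989) in WT, Kmt2c KO and Kmt2d KO, and ranged from 7.32% to 36.4% over single tumours. Plasmacytoid cells were seen in no WT tumour, among 64 dendritic cells in all, and in 3 of the 6 knockout tumours (exact permutation p = 0.679). That absence rests on cells with Siglech and no marker of another part. Siglech was detected in 21 dendritic cells, of which 4 also held cDC1 markers and 7 Cd209a, and these counted as mixed. The plasmacytoid gene list summed to 282 to 1486 CPM in WT, 1925 to 2842 in Kmt2c KO and 882 to 2450 in Kmt2d KO.

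**Figure D3:**
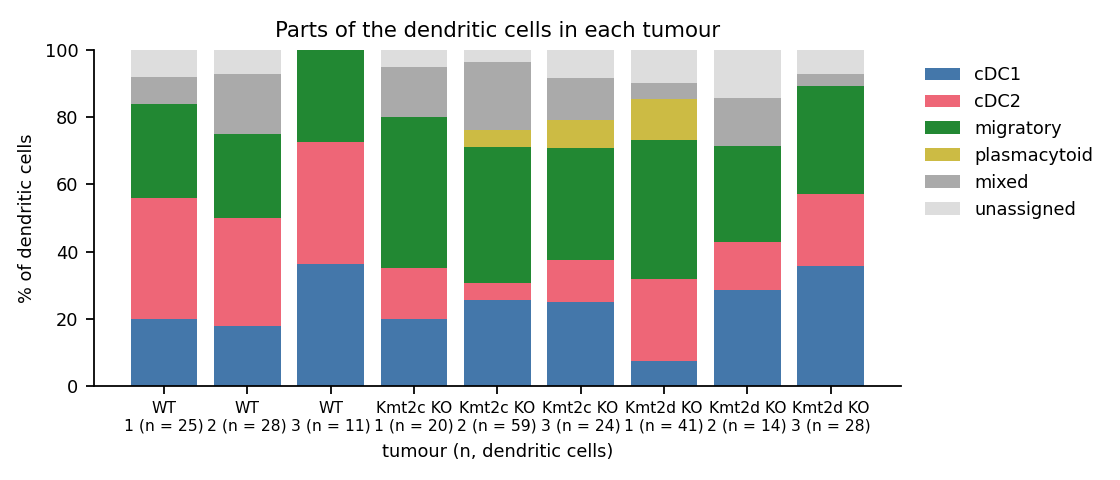
Share of each part among the dendritic cells of each tumour, in percent, with the number of dendritic cells under each bar. The cDC2 share is 32.1% to 36.4% in WT, 5.08% to 15% in Kmt2c KO and 14.3% to 24.4% in Kmt2d KO.

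Gene levels were then compared between genotypes on UMI counts summed over the dendritic cells of each tumour, with edgeR's quasi-likelihood test over the 1610 genes that passed its filter on low counts and were not in the rule. In Kmt2c KO against WT, 5 genes rose (0.311% of those tested) and 4 fell (0.248%) at a Benjamini-Hochberg adjusted p below 0.05, or 0.559% in all. In Kmt2d KO against WT, edgeR called 0 genes, with 63 at an unadjusted p below 0.05, and DESeq2 also called 0. In Kmt2d KO against Kmt2c KO, 3 genes were higher (0.186%) and 1 was lower (0.0621%), or 0.248% in all. The sums held 36778 to 194252 UMIs per tumour. In data simulated at these depths for Kmt2c KO against WT, the test recovered 23.4% of genes changed by 1 on the log2 scale. Of genes changed by 2 it recovered 95%, so that smaller changes were mostly out of reach. The simulation changed 200 genes, gave genes of like level the same spread and had 3 false calls. With fewer changed genes or a less even spread, recovery can be lower, and it was not measured for that case.

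The calls in Kmt2c KO leaned on its second tumour, which held 59 of the 103 dendritic cells of the group. Without it, 0 genes were called by edgeR in that comparison (141 at an unadjusted p below 0.05), and 0 in Kmt2d KO against Kmt2c KO. Fold changes of the 9 genes without it kept their direction. With 21 cells left out that held a gene of other cell types beyond the 6 of the rule, 3 genes were called, namely Mgl2, Fcgr2b and Mrc1. Without WT tumour 1, and likewise without WT tumour 2, none of the 5 genes that rose was called, while Mgl2 and Fcgr2b lost theirs, of the 9 tumours left out in turn, only without Kmt2c KO tumour 2 (edgeR adjusted p = 0.0542 and 0.0601). Counts of calls without each other tumour ran from 3 (without WT tumour 1) to 19 (without Kmt2d KO tumour 1). The median mitochondrial share of the dendritic cells was 2.48% to 3.17% in the Kmt2c KO tumours, 3.40% to 4.43% in WT and 3.39% to 4.71% in Kmt2d KO, and its part in the calls was not tested.

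The 4 genes that fell in Kmt2c KO were higher in cDC2 than in cDC1 and migratory cells. Mgl2 was at 834, 1435 and 768 CPM in the WT tumours, 43.3, 41.2 and 135 in Kmt2c KO and 1130, 163 and 788 in Kmt2d KO. The Kmt2c KO values lay below all others, and the second Kmt2d KO tumour, with 14 dendritic cells, lay nearest to them. Mgl2 was 14.9-fold lower in Kmt2c KO than in WT (log2 change -3.90 ± 0.57 SE, edgeR adjusted p = 0.000767) and 10.8-fold higher in Kmt2d KO than in Kmt2c KO (log2 change 3.44, adjusted p = 0.00669). With 1 tumour left out in turn these log2 changes ran from -4.55 to -3.44 and from 2.93 to 4.11, both largest without Kmt2c KO tumour 3. Fcgr2b, the inhibitory receptor for IgG, was at 321, 333 and 286 CPM in WT, 43.3, 36.04 and 67.5 in Kmt2c KO and 247, 218 and 253 in Kmt2d KO. The Kmt2c KO tumours lay below both other groups, with a log2 change of -2.77 ± 0.42 against WT (adjusted p = 0.000767) and of 2.40 ± 0.43 for Kmt2d KO against Kmt2c KO (adjusted p = 0.00859).

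Mrc1 had no UMI in any Kmt2c KO dendritic cell. It was at 488, 128 and 136 CPM in WT and at 114, 27.2 and 178 in Kmt2d KO. Against a floor of 3 counts over the group, Mrc1 in Kmt2c KO was at least 26.9-fold lower than in WT and at least 13.5-fold lower than in Kmt2d KO (edgeR adjusted p = 0.000767 and 0.0175). Without WT tumour 1 the first bound was 13.8-fold, and Mrc1 was no longer called against WT (edgeR adjusted p = 0.0568). Wfdc17, a small secreted protein of myeloid cells, was at 308, 769 and 211 CPM in WT and 64.9, 56.6 and 40.5 in Kmt2c KO (log2 change -3.01 ± 0.58, adjusted p = 0.0113, and -2.26 without WT tumour 2). In Kmt2d KO, Wfdc17 was at 503, 109 and 188 CPM, overlapping with WT. Cd209a, a gene of the rule and thus outside the counts, was at 795, 461 and 798 CPM in WT and 238, 165 and 243 in Kmt2c KO, which is given without a test because the gene helped to pick the cells.

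**Figure D4:**
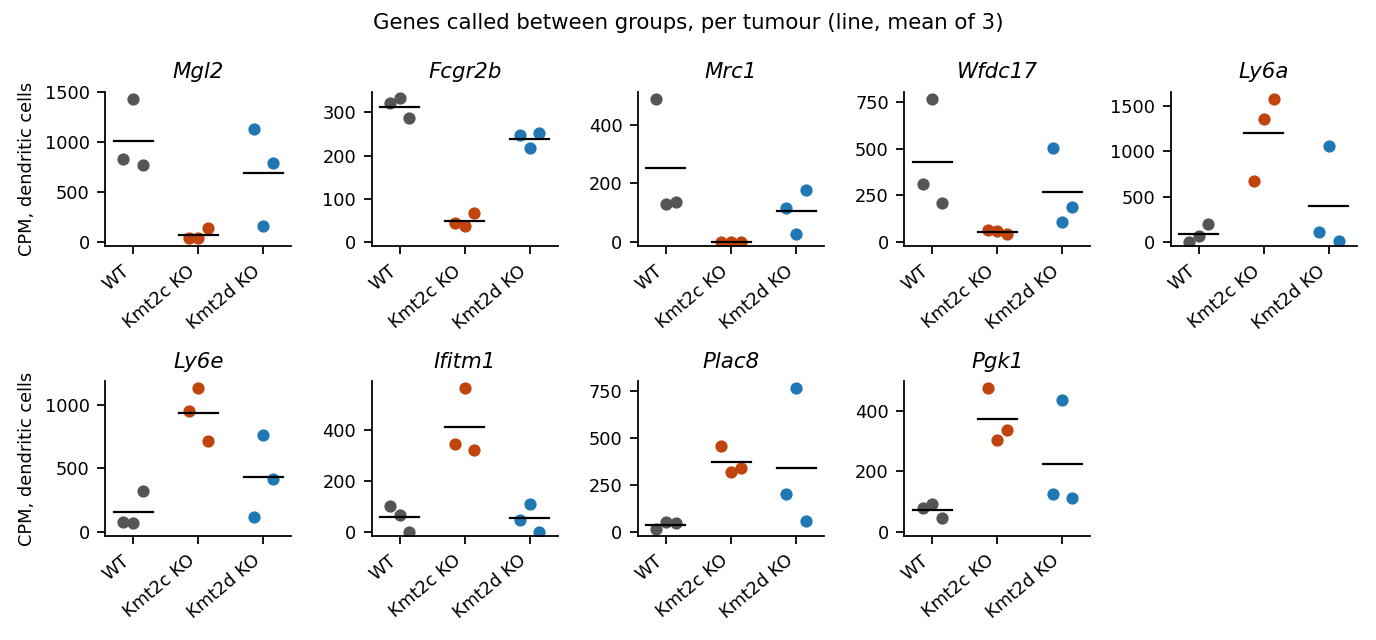
Level in CPM of the 9 called genes in the summed dendritic cells of each tumour, with a line at the mean of 3. Mgl2, Fcgr2b, Mrc1 and Wfdc17 are lowest in Kmt2c KO, and Ly6a, Ly6e, Ifitm1, Plac8 and Pgk1 are higher in all 3 Kmt2c KO tumours than in all 3 WT tumours.

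A fall in summed dendritic cells can come from fewer cDC2 cells, from less RNA in each or from less RNA of other cells. The sums alone cannot tell these apart, and the part of macrophages was not tested. Cd209a helped to pick the cells and was lower in Kmt2c KO, so that the rule can miss cDC2 cells poor in Cd209a. The p-values of the genes that fell are therefore not independent of a rule gene, and the part of that selection was not tested. The cells of the cDC2 part can be looked at by themselves, although only 9 of them were from Kmt2c KO, against 22 from WT and 18 from Kmt2d KO. With so few, the counts are given without a test. Mgl2 was detected in 3 of the 9 Kmt2c KO cells, 15 of the 22 WT cells and 12 of the 18 Kmt2d KO cells, at 347, 2284 and 2328 CPM. Mrc1 was detected in 0, 15 and 10 of these cells and Fcgr2b in 1, 17 and 13. The median depth was 3101 UMIs in the Kmt2c KO cells and 2743.5 and 2618.5 in the WT and Kmt2d KO cells.

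The same 9 cells held other genes at high levels. Ifitm1 was detected in 7 of 9 cells of Kmt2c KO, 3 of 22 of WT and 2 of 18 of Kmt2d KO, and Ly6a in 6, 1 and 1. Plac8, a gene of monocytes and plasmacytoid cells, was detected in 8, 4 and 1, and Fcgr1, the high-affinity IgG receptor, in 6, 1 and 1. The monocyte genes Vcan and Chil3 were at 0 in all of them, Ly6c2 was detected in 2, 0 and 1, and Ccr2 in 1, 14 and 3. Every cDC2 cell of each group held H2-Ab1, at 11123 CPM in Kmt2c KO, 12310 in WT and 13414 in Kmt2d KO. Each also held Cd74, which was lower in Kmt2c KO, at 20923 CPM against 33715 in WT and 31193 in Kmt2d KO. Lists of other cell types moved with the genotype in the summed cells. The 12 macrophage genes, of which Mertk and Ms4a7 were at 0, summed to 753 to 1078 CPM in WT, 260 to 371 in Kmt2c KO and 489 to 921 in Kmt2d KO. The 7 monocyte genes, with Chil3 at 0, summed to 192 to 241, 515 to 671 and 188 to 924 CPM, and the part of either cell type in the results was not tested.

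The 5 genes that rose in Kmt2c KO were Ly6a, Ly6e, Ifitm1, Plac8 and Pgk1, of which Ly6e is on the list of interferon-inducible genes given below. In WT, Ifitm1 had 8, 5 and 0 UMIs, Plac8 1, 4 and 3 and Pgk1 6, 7 and 3. Such genes can pass the filter on low counts through knockout tumours alone, and their calls and p-values carry that limit. Ly6a, known as Sca-1, was at 0, 64.0 and 196 CPM in WT, 671, 1359 and 1579 in Kmt2c KO and 104, 1060 and 9.38 in Kmt2d KO. The Kmt2c KO tumours lay above all WT tumours, and the second Kmt2d KO tumour was among them. Ly6a was 13.9-fold higher in Kmt2c KO than in WT (log2 change 3.80 ± 0.88 SE, edgeR adjusted p = 0.0414). That log2 change was 3.17 without WT tumour 1 and 5.17 without WT tumour 3. Ly6e was at 76.98, 64.04 and 316 CPM in WT, 952, 1133 and 715 in Kmt2c KO and 114, 761 and 413 in Kmt2d KO. It was 6.14-fold higher in Kmt2c KO than in WT (log2 change 2.62, edgeR adjusted p = 0.0291). With 1 tumour left out in turn that log2 change ran from 2.25 to 3.72, the highest without WT tumour 3.

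Ifitm1, which encodes an antiviral membrane protein, was at 103, 64.0 and 0 CPM in WT, 346, 566 and 324 in Kmt2c KO and 47.5, 109 and 0 in Kmt2d KO. It set Kmt2c KO apart from both other groups, by a log2 change of 2.83 ± 0.60 against WT (edgeR adjusted p = 0.0291) and of -3.40 ± 0.65 for Kmt2d KO against Kmt2c KO (adjusted p = 0.0147). With 1 tumour left out in turn the first ran from 2.35 to 3.53, the highest without WT tumour 1. The second was -4.06 without Kmt2d KO tumour 2 and -2.62 without Kmt2d KO tumour 3. Plac8 was at 12.8, 51.2 and 45.2 CPM in WT, 454, 314 and 337 in Kmt2c KO and 199, 761 and 56.3 in Kmt2d KO (log2 change 3.23 ± 0.71 for Kmt2c KO against WT, adjusted p = 0.0291). Cells of the plasmacytoid part, of which WT had none with Siglech alone, held Plac8 at 1318 CPM. In cDC1 cells Plac8 was at 0 in WT and at 142 CPM in Kmt2c KO. Pgk1, an enzyme of glycolysis, was at 76.98, 89.7 and 45.2 CPM in WT and 476, 304 and 337 in Kmt2c KO (log2 change 2.28 ± 0.50, adjusted p = 0.0291). In Kmt2d KO, Pgk1 was at 123, 435 and 113 CPM.

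The higher Ly6a was seen in each of the 3 larger parts. In cDC1 cells it was at 1048 CPM in Kmt2c KO, 112 in WT and 139 in Kmt2d KO. In migratory cells it was at 1089, 69.8 and 546 CPM, and in cDC2 cells at 2300, 81.1 and 14.5 CPM, in the same order. Ifitm1 was less even, with 2962 CPM in the cDC2 cells of Kmt2c KO, 304 in the migratory cells and 65.5 in cDC1 cells. When the migratory cells were tested by themselves, as an alternative added later, 0 genes were called by edgeR in Kmt2c KO against WT among 482 tested (36 at an unadjusted p below 0.05), and without them 10 were called, 7 of which were among the 9.

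Across a list of 19 interferon-inducible genes, every gene had a higher mean CPM in Kmt2c KO than in WT, against 52.4% of the 7933 genes with at least 10 UMIs. For 12 of the 19 all Kmt2c KO tumours lay above all WT tumours, against 6.73% of those genes. In Kmt2d KO all 19 means were likewise above WT (background 51.0%), but only Ifi44 had all tumours above (background 4.82%). The 19 genes summed to 6498 CPM in the second Kmt2d KO tumour, which had 14 dendritic cells, against 1956 and 2421 in the others. The mean of that sum therefore leaned on a single tumour. The filter on low counts passed 7 of the 19. Of these 1, Ly6e, was called as higher in Kmt2c KO than in WT, where 5 of all 1610 genes tested (0.311%) were. The median log2 change of the 7 was 1.72, beside -0.01 over all genes tested. A gene can pass that filter on its counts in knockout tumours alone. Ifi44 had 0, 2 and 1 UMIs in WT against 2, 35 and 10 in Kmt2c KO. Such a selection can raise the count of calls and the median, which describe the 7 genes only. The antiviral modifier Isg15 changed by 1.94 ± 0.50 (edgeR adjusted p = 0.0678) and Bst2 by 1.72 ± 0.44 (adjusted p = 0.0678), neither past the threshold. Irf7, the regulator of type I interferon, was at 12.8, 448 and 452 CPM in WT and 281, 988 and 567 in Kmt2c KO, so that the groups overlapped (adjusted p = 0.675).

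Summed over the 19 genes, dendritic cells held 1014, 2318 and 2409 CPM in WT, 4910, 6945 and 4926 in Kmt2c KO and 1956, 6498 and 2421 in Kmt2d KO. The Kmt2c KO tumours did not overlap with WT, and the second Kmt2d KO tumour stood with them. Other cells of the same tumours showed the same order of means, for which no test was made. The list was at a mean of 4624 CPM in the macrophages of WT, 10783 in those of Kmt2c KO and 5048 in those of Kmt2d KO, and at 1596, 7015 and 3092 CPM in tumour cells. Free RNA of lysed cells can enter any droplet, and its part in the dendritic values was not tested for this list. Ly6a was at 75.7, 1254 and 287 CPM in all other kept cells, close to its level in dendritic cells. Ly6e and Pgk1 were also higher in the other cells of Kmt2c KO than of WT, as values without a test. In all other kept cells of WT, Kmt2c KO and Kmt2d KO, Ly6e was at 519, 1193 and 637 CPM and Pgk1 at 396, 564 and 435. Pgk1 was at 478, 834 and 562 CPM in their tumour cells. Ifitm1 was at a mean of 412 CPM in the dendritic cells of Kmt2c KO, 162 in their macrophages (127 in those of WT) and 4.35 in all other kept cells. Plac8 was at 369 CPM in the dendritic cells of Kmt2c KO, 275 in their macrophages (50.1 in those of WT), 70.2 in their T cells and 13.2 in all other kept cells, so that it was higher than in WT in macrophages too, as a value without a test. Mgl2 was lower in the macrophages of Kmt2c KO too, at a mean of 66.6 CPM against 500 in WT and 399 in Kmt2d KO, which is given as a value without a test. In the macrophages of WT, Kmt2c KO and Kmt2d KO, Mrc1 was at means of 1054, 372 and 776 CPM. Wfdc17 was at 897, 298 and 314 CPM in them, and Fcgr2b at 1171, 779 and 722. Each of these means was lower in Kmt2c KO than in WT, again without a test.

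**Figure D5:**
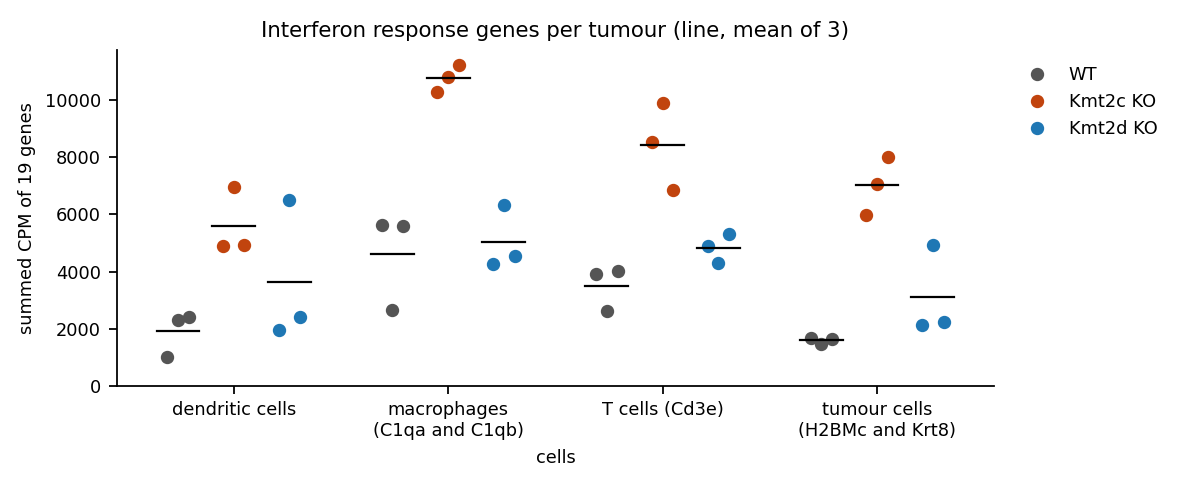
Summed CPM of 19 interferon-inducible genes in the dendritic cells, macrophages, T cells and tumour cells of each tumour. Points are tumours. In each of the 4 populations the mean is highest in Kmt2c KO, and in dendritic cells the Kmt2c KO tumours lie at 4910 to 6945 CPM against 1014 to 2409 in WT.

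No gene of antigen presentation was called between genotypes. The class I list had 10 genes past the filter, all with a positive log2 change in Kmt2c KO against WT. None was called, where 0.559% of all genes tested were, and 3 had groups that did not overlap, where 12.3% of all genes tested did. Summed over the 11 listed genes, class I was at 7813, 9184 and 8793 CPM in WT, 15098, 12921 and 10796 in Kmt2c KO and 8395, 10468 and 9271 in Kmt2d KO. The immunoproteasome subunit Psmb9 changed by 1.20 ± 0.38 (edgeR adjusted p = 0.190) and the peptide transporter gene Tap1 by 1.38 ± 0.45 (adjusted p = 0.195). The class II list had 9 genes past the filter, 1 with a positive change and none called, with a median of -0.62 in Kmt2c KO. Its sum was at 39271, 65489 and 63750 CPM in WT, and at 21544, 43850 and 31390 in Kmt2c KO, where the first WT tumour lay within the range of the knockout.

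The lists for the parts are short beside the 0.559% of all genes tested that were called, so that a count of 0 calls says nothing particular about their members. Of the 6 cDC2 genes tested in Kmt2c KO against WT, Mgl2 was called and the median log2 change was -1.30, with Sirpa at -2.04 ± 0.50 (edgeR adjusted p = 0.0577). None of 9 cDC1 genes and none of 13 migratory genes was called, with medians of 0.42 and -0.01, and none of 5 costimulation genes, 3 checkpoint genes or 6 cytokine and chemokine genes was called. In Kmt2d KO against WT, where 0 of all genes tested were called (0.0%), the listed genes had none either. The median was -0.18 for cDC2 genes, 0.20 for migratory genes and 0.72 for interferon genes. The last of these carries the limit of the filter given above. Of the 4 genes called in Kmt2d KO against Kmt2c KO, all were also called in Kmt2c KO against WT, with which they share the Kmt2c KO tumours.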

How the data were processed

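The authors deposited 1 matrix of whole-number UMI counts per gene and barcode, made with Cell Ranger 7.0.1 (count, then aggregation) on the mm10 build, per the submitters' processing notes. The sources used here do not say whether aggregation thinned libraries to a common depth. Barcode suffixes name the library. Each library has a genotype letter, and the study's own comparison names tie C to Kmt2c KO, D to Kmt2d KO and X to WT. Quality limits were those of the study, which left 58645 of 89147 barcodes. The study tested single cells. Here counts were summed per tumour, with at least 10 dendritic cells in each, because cells are not replicates.

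The rule for dendritic cells, the parts and the gene lists were chosen with earlier results of these data known. Named genes were those of the lists, the 10 genes of each part with the largest ratio of CPM over other dendritic cells (at least 20 UMIs, 20% of cells and 3 libraries), and the called genes of each contrast without overlap between groups. Sums were tested in R 4.3.3 with edgeR 4.0.16 (filterByExpr, TMM, glmQLFit, glmQLFTest, all 9 tumours in 1 fit, no covariate), after a trial on simulated counts. Rule genes were left out of counts of calls. DESeq2 1.42.0 was an alternative, with other scalings, filters, cell limits, thinning and left-out tumours. Shares were tested with exact permutation tests in Python 3.11.15 with SciPy 1.17.1. Doublets were not called. Leaving out the 5% of cells with most UMIs in each library was an alternative.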

Additional observations from a re-analysis of the deposited data

How the results depend on the processing

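No paired analysis was possible because the libraries carry no replicate number of the labels. The difference in the dendritic share between Kmt2d KO and Kmt2c KO, within the spread throughout, turned positive against Ptprc-positive cells (5.79 percentage points), against cells without H2BMc and Krt8 (0.0890) and per 100 macrophages (47.3, added later), and ranged from -0.218 to 0.0746 when each tumour was left out in turn. The migratory share lost its unadjusted p of 0.025 after thinning to 1000 UMIs (0.957), where the difference of Kmt2d KO from WT was -4.81 percentage points, and its exact permutation p ranged from 0.0107 to 0.0929 with 1 tumour left out. The cDC2 share, which rests on Cd209a, kept an exact permutation p of 0.0036 to 0.0321 under all alternatives run. All of these set the part by the same Cd209a counts, so that none is independent of that gene.

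For Kmt2c KO against WT, edgeR called 46 genes without the filter on low counts, 16 when only the 2 groups were fitted, 3 with the further exclusion genes, 0 in the migratory part alone (added later) and 0 to 19 with 1 tumour left out. For Kmt2d KO against WT it called 7 without the filter and 0 to 3 with 1 tumour left out, the 3 without Kmt2d KO tumour 3. For Kmt2d KO against Kmt2c KO it called 18 without the filter, 7 in tumours with at least 20 dendritic cells, 2 with the further exclusion genes, 1 in the migratory part alone and 0 to 8 with 1 tumour left out. DESeq2 called 9, 0 and 4 genes, of which 5, 0 and 3 were shared with edgeR. Irf7 in Kmt2c KO against WT turned to -0.19 in the migratory part alone. The cause of these changes was not tested. Of 351 values of 21 gene results under alternatives, 277 kept their direction and side of the threshold, 54 were no longer past it, 19 passed it newly and 1 reversed. The 21 results include Isg15, Bst2 and other genes that were not past the threshold above, for which staying short of it counts as kept. They also include Cd209a, a gene of the rule, so that these counts do not measure how stable the calls were.

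The main limit is number. Some tumours gave 11 or 14 dendritic cells, 3 tumours against 3 cannot reach an exact p below 0.10, and intervals on pooled cells leave out the spread between mice.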
